A study of Mus musculus with 27 samples.

Results

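Mouse mixed glia exposed for 24 h to lipopolysaccharide (LPS, 100 ng/mL) together with interferon-gamma (IFN-gamma, 20 ng/mL) were compared with untreated glia of the same experiment. The comparison used 3 libraries per group, 6 of the 27 libraries in the series, taken by their labels and table column names. It covered every gene with enough counts to be tested, 16073 of the 54532 genes in the count table. The cultures were grown from the cortex of C57BL6 pups aged postnatal day 3 to 6, without any transgene or deletion in the labels, in medium with 10% fetal bovine serum on poly-D-lysine, and were used at 14 days in vitro. Both groups share these conditions, and the untreated group received neither agent. RNA was taken from whole mixed cultures, so each library sums all the cell types present; genes of astrocytes (Gfap) and of microglia (Aif1) were measured in every library, at authors' deposited mean FPKM of 885 and 25.4 in treated and 2217 and 13.9 in untreated glia. A group given LPS alone, at 100 ng/mL for the same time (n = 3), is used below only to show where adding IFN-gamma made a difference. In what follows, treated glia are those given LPS with IFN-gamma, and errors given with ± are standard errors (SE).

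LPS is a cell wall lipid of Gram-negative bacteria that is sensed by the receptor TLR4 and signals through MyD88 to NF-kB and through TRIF to IRF3 and type I interferon. IFN-gamma binds the receptor pair IFNGR1 and IFNGR2, activates JAK1 and JAK2, acts on genes through gamma-activated sites in their promoters, and induces IRF1, which binds interferon-stimulated response elements. Given together, the agents are a textbook stimulus for the pro-inflammatory activation of microglia and macrophages, and astrocytes carry receptors for both signals or for the cytokines that microglia release.

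The library labelled untreated replicate 1 stood apart from the other untreated libraries. Across the genes tested its log2 levels correlated with untreated replicates 2 and 3 at r = 0.9707 and 0.9716, against 0.9947 between replicates 2 and 3 and 0.9886 to 0.9942 among the treated libraries. It is called by its label throughout, and many of the results that rest on it are given with and without it. Total counts were 17383754 to 17866250 in treated libraries and 17412096 to 18116713 in untreated libraries, so that 3 counts, the floor used here, amount to 0.187 to 0.194 and 0.143 to 0.161 CPM (counts per 1000000). Levels are CPM of the library size scaled by the trimmed mean of M values (TMM), and where values are listed they stand in the order of replicates 1 to 3. The labels do not say that replicates came from separate cultures, so the p-values rest on how these libraries vary, and that variation may be only technical. In bulk RNA, fewer cells of a type and less RNA per cell cannot be told apart.

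Most genes tested were called between treated and untreated glia in the fit of the 15 libraries of the experiment. By edgeR's quasi-likelihood test with Benjamini-Hochberg adjustment, 9339 genes (58.1% of those tested) were called at an adjusted p under 0.05, 4743 higher (29.5%) and 4596 lower (28.6%). Genes said below to have risen or fallen passed this test over all genes. With only the compared groups in the fit 7423 genes were called, and 4315 in a test against a fold of 1.5. Counts of list members called are to be set beside these shares of 29.5% higher and 28.6% lower. The median log2 fold change of all genes tested was -0.005. Of the called genes, 1919 were more than 2-fold higher (11.9%) and 2151 more than 2-fold lower (13.4%), but the sizes were unequal: 185 rises and 13 falls exceeded 6 on the log2 scale, and 211 rises and 73 falls lay between 4 and 6. All treated libraries lay above all untreated libraries for 4872 genes (30.3%) and below them for 4505 (28.0%). Without the library labelled untreated replicate 1, 9997 of 16417 genes were called (60.9%), 5082 higher (31.0%) and 4915 lower (29.9%). The sizes were then less unequal: 209 rises and 33 falls exceeded 6 on the log2 scale, and 196 rises and 100 falls lay between 4 and 6. Of the genes tested in both fits, 8763 were called in the same direction, 0 in opposite directions, 576 lost their call and 1077 gained one.

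**Figure D1:**
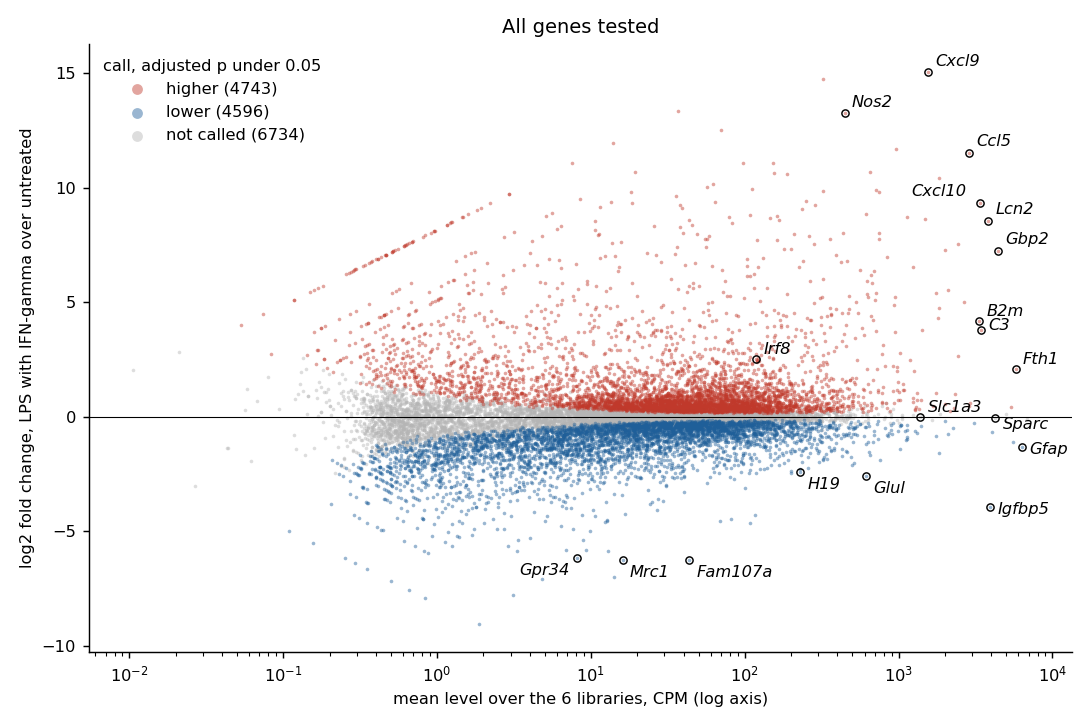
Each point is a gene tested: the horizontal log axis gives its mean level over the 6 libraries in CPM and the vertical axis its fitted log2 fold change, LPS with IFN-gamma over untreated; genes with 0 to 3 counts in a group have fitted values that depend on the prior count. The 4743 genes called higher reach to larger fold changes than the 4596 called lower.

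The genes that rose more than 2-fold held 30.6% to 31.3% of all counts in treated libraries, against 6.54% to 6.67% in untreated libraries. The genes that fell more than 2-fold held 3.36% to 3.59% of counts in treated libraries and 12.7% to 13.1% in untreated libraries. The largest gains of mean CPM, a scale not divided by gene length, were those of Gbp2 (an interferon-induced GTPase), Lcn2 (the iron-siderophore binder lipocalin-2), Fth1 (the ferritin heavy chain), Cxcl10 (a chemokine for T cells), B2m (the light chain of class I molecules), C3 (the central complement component), Ccl5, H2-K1, Igtp and Ifit3. Gbp2 had 9077, 8743 and 8518 CPM in treated glia, against 27.6, 73.9 and 73.6 CPM in untreated glia. Lcn2 had 8495, 6688 and 7668 CPM in treated glia, against 16.8, 22.5 and 22.4 CPM in untreated glia. Fth1, already abundant, had 10389, 8377 and 9151 CPM in treated glia, against 2599.6, 2094 and 1962 CPM in untreated glia, a log2 fold change of 2.07 ± 0.13 (SE). Per length, in the authors' deposited FPKM means, Fth1 stood at 11024 in treated and 2653 in untreated glia, B2m at 7542 in treated and 424 in untreated glia, and Lcn2 at 2979 in treated and 8.14 in untreated glia.

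The largest losses of mean CPM were those of Igfbp5 (an insulin-like growth factor binding protein), Gfap (the astrocyte intermediate filament protein), Pea15a, Ckb (brain creatine kinase), Vim (vimentin), Igfbp2, mt-Cytb, Lyz2 (lysozyme of myeloid cells), Glul (glutamine synthetase) and Acta2 (smooth muscle actin). Igfbp5 had 425, 577 and 445 CPM in treated glia, against 10324, 5527 and 6202 CPM in untreated glia, a log2 fold change of -3.93 ± 0.21 (SE). The library labelled untreated replicate 1 held the highest value, and without it the log2 fold change was -3.60 ± 0.12. Pea15a had 3756, 3380.2 and 3244 CPM in treated glia, against 10308, 6212 and 6153 CPM in untreated glia, with the same library highest. Igfbp2 rested on that library: it had 1806, 1513 and 1351 CPM in treated glia, against 4159, 1938 and 1728 CPM in untreated glia, and its log2 fold change of -0.74 ± 0.25 became -0.23 ± 0.12 and lost its call without it (edgeR adjusted p = 0.0970). The call was also lost without treated replicate 2 (-0.73) or treated replicate 3 (-0.65). Ckb had 1113, 819 and 839 CPM in treated glia, against 2764, 2945 and 2550.1 CPM in untreated glia and showed no such dependence.

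**Figure D2:**
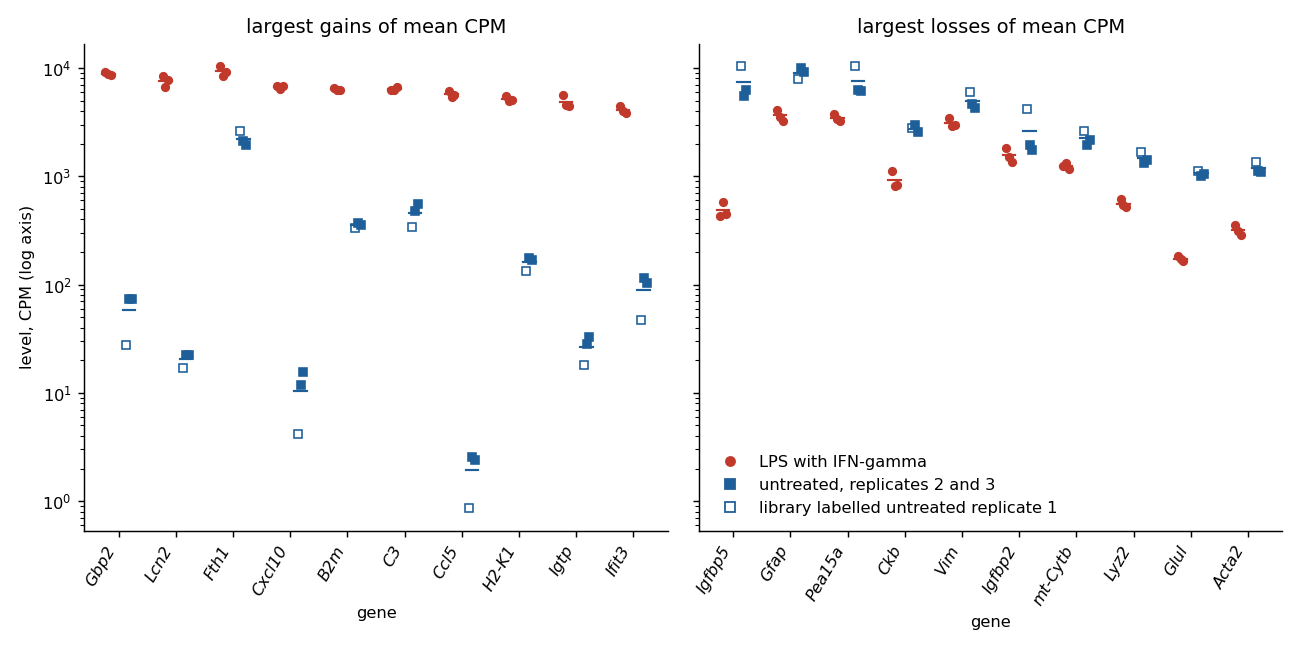
Levels in CPM on a log axis of the 10 genes with the largest gain and the 10 with the largest loss of mean CPM, 1 point per library, LPS with IFN-gamma left of untreated for each gene; the open square is the library labelled untreated replicate 1. All gains are separated between groups, and among the losses only Igfbp2 overlaps between groups, also once the open square is set aside.

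Genes of IFN-gamma reception and signalling rose together. Of 21 measured genes of this list, 19 rose, 0 fell and 2 were not called, with a median log2 fold change of 1.98 beside -0.005 over all genes tested. The receptor chains differed: Ifngr2 had 117, 107 and 121 CPM in treated glia, against 47.8, 48.2 and 51.97 CPM in untreated glia (log2 fold change 1.22 ± 0.075), while Ifngr1, the ligand-binding chain, had 77.7, 72.9 and 78.9 CPM in treated glia, against 60.2, 74.1 and 76.1 CPM in untreated glia and was not called (edgeR adjusted p = 0.229). With LPS alone Ifngr1 rose to 98.2, 98.8 and 101 CPM (0.50 ± 0.086 on the log2 scale). Treated glia were lower than LPS alone for Ifngr1 (-0.38 ± 0.086), while Ifngr2 did not pass that direct test (0.15 ± 0.074). Jak2, the kinase bound to IFNGR2, rose by 1.88 ± 0.11 on the log2 scale, and Jak1 by 0.43 ± 0.090. Pias1, a SUMO ligase, was the other member not called.

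The transcription factors of this list rose steeply. Irf1, an early interferon-induced factor, had 1390.1, 1221 and 1362 CPM in treated glia, against 19.9, 25.2 and 24.9 CPM in untreated glia, a log2 fold change of 5.83 ± 0.12. Irf7, the amplifier of type I interferon, had 1854, 1593 and 1587 CPM in treated glia, against 6.22, 18.7 and 15.4 CPM in untreated glia. Irf8, a factor of the myeloid lineage, had 218, 193 and 196 CPM in treated glia, against 32.4, 38.3 and 36.9 CPM in untreated glia. Their groups did not overlap. Batf2, a partner of IRF1, had 78.7, 75.7 and 73.3 CPM in treated glia, against 0.161, 0.148 and 0.0477 CPM in untreated glia, the largest fitted rise of the list (9.26 ± 0.25 on the log2 scale). The transactivators of antigen presentation also rose: Nlrc5, which drives class I genes, had 183, 232 and 227 CPM in treated glia, against 2.89, 3.31 and 2.86 CPM in untreated glia. Ciita, which drives class II genes, had 67.03, 77.4 and 65.9 CPM in treated glia, against 0.429, 0.296 and 0.763 CPM in untreated glia. The feedback inhibitors Socs1 and Socs3, which block JAK activity, rose by 5.64 ± 0.15 and 2.44 ± 0.086 on the log2 scale. Against LPS alone, 13 of the 21 genes were higher and 2 lower in treated glia, where 5791 of all genes tested were called (36.0%), 3094 higher (19.2%) and 2697 lower (16.8%). Irf1 differed by 3.56 ± 0.11, Socs1 by 3.34 ± 0.13 and Ciita by 4.83 ± 0.17 on the log2 scale, while Socs3 (0.024 ± 0.080) and Irf7 (0.19 ± 0.23) did not pass that test.

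Among the genes with the largest rises, many promoters carried the letters of the interferon-stimulated response element. The 300 bases from 250 before to 50 after each gene's start were read from RefSeq promoters (GRCm38.p6) and searched on both strands for its core, a pair of GAAA blocks with any 2 bases between them. The core stood in 1131 of 32851 promoters of the whole table (3.44%) and in 487 of 15129 promoters of genes tested (3.22%). For genes called higher with a log2 fold change over 4, 266 of 396 had a promoter in the table, and 69 of their 311 promoters held it (22.2%). Among genes more than 2-fold lower it stood in 56 of 1981 promoters (2.83%). For the GTPases of the GBP and IRG families described next, 11 of 18 genes had an entry, and 10 of their 12 promoters held it (83.3%). The core of the gamma-activated site, TTCNNNGAA, stood in 8.30% of all promoters, in 39 of the 311 (12.5%) and in 6 of the 12 (50.0%). The kappa B core, read here as GGG and CC with any 5 bases between them and so a looser pattern, stood in 50.8% of all promoters, 65.8% of those of genes tested and 59.2% of the 311. A match describes letters in this window and shows no binding.

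The 250 bases before the start are shown for 8 genes whose rises are described in the text, to show how the cores lie in front of different classes of interferon-responsive gene. They are written 5′ to 3′ on the gene's own strand (GRCm38.p6, from RefSeq), with capitals marking matches to the response element core or to TTCNNNGAA on either strand. Igtp (chr11:58199306-58199555, plus strand) and Irgm2 (chr11:58214727-58214976, plus strand) are neighbouring IRG genes with both cores side by side. Irgm1 (chr11:48871421-48871670, minus strand) and Isg15 (chr4:156200819-156201068, minus strand) carry tandem response element cores that overlap by 4 bases. In Gbp5 (chr3:142496684-142496933, plus strand) the response element core lies on the opposite strand, between gamma-activated site cores. Irf1 (chr11:53769764-53770013, plus strand, the first of 2 entries) carries a gamma-activated site core only, and Cxcl10 (chr5:92348890-92349139, minus strand) and B2m (chr2:122147437-122147686, plus strand) a response element core only.
Igtp: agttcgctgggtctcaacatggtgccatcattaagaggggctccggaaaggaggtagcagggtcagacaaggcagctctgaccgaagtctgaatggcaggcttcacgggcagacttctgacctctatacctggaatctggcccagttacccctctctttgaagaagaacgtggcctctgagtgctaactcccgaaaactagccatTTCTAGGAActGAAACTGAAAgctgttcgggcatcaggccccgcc
Irgm2: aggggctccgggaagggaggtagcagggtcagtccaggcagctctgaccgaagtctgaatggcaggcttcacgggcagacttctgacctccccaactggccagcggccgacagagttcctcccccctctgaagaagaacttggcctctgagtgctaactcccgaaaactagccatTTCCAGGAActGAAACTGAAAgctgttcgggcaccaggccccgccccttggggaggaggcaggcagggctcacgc
Irgm1: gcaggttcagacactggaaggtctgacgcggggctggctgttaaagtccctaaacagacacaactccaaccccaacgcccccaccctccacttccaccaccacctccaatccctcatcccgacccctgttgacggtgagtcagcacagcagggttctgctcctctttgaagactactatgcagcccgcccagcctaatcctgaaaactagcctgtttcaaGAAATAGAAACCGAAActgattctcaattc
Gbp5: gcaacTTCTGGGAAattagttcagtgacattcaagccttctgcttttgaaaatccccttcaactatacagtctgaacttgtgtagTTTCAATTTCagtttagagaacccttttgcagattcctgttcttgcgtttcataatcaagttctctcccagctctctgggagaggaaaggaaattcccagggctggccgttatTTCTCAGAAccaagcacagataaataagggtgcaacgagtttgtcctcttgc
Irf1: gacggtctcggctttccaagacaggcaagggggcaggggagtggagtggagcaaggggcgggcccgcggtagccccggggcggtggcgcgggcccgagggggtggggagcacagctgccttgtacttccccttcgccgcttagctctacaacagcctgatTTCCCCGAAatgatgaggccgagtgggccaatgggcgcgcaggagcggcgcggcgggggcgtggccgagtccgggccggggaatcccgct
Cxcl10: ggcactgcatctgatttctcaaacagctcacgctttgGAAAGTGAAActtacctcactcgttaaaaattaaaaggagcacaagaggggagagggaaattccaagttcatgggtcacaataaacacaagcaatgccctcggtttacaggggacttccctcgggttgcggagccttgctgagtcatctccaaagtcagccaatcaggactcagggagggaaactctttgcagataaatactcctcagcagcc
Isg15: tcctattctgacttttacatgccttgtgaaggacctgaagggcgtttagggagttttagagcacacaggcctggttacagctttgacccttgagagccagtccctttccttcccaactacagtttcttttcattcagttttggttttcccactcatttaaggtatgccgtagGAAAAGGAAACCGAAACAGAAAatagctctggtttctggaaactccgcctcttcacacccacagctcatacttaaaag
B2m: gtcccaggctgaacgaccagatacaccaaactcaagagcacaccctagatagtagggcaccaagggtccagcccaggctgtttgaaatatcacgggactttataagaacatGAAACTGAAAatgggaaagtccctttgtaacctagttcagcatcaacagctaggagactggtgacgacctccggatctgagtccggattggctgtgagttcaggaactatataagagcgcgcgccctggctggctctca

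Reading from the base next to the start, the response element core begins 34 bases before it in Igtp, 64 in Irgm2, 139 in B2m and 213 in Cxcl10. The gamma-activated site core begins at 45 in Igtp, 75 in Irgm2 and 90 in Irf1. In Igtp and Irgm2 the cores are thus 2 bases apart in the same order.

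The guanylate binding proteins and immunity-related GTPases, which attack the vacuoles of intracellular pathogens, all rose. Of 18 genes, 18 rose, with log2 fold changes of 5.11 to 10.70 among those with counts in untreated glia and a median of 7.99. Together they held 2.89% to 2.99% of all counts in treated libraries, against 0.0159% to 0.0369% in untreated libraries. Igtp (Irgm3) had 5573, 4560.2 and 4415 CPM in treated glia, against 18.1, 27.99 and 32.6 CPM in untreated glia. Iigp1 had 2031, 2453 and 2306 CPM in treated glia, against 1.66, 6.17 and 8.01 CPM in untreated glia. Gbp5, a regulator of the inflammasome, had 2718, 2884 and 3223 CPM in treated glia, against 2.36, 9.08 and 10.4 CPM in untreated glia. In each of these the untreated library labelled replicate 1 was lowest. Irgm1, a regulator of autophagy, had 1869, 1865 and 1772 CPM in treated glia, against 39.8, 51.3 and 56.4 CPM in untreated glia. Gbp10 had 1058, 1460.3 and 1415 CPM in treated glia, against 0.0536, 0.987 and 1.24 CPM in untreated glia. Gbp2b (Gbp1) had 12.8, 19.7 and 12.5 CPM in treated glia, against 0, 0 and 0 CPM in untreated glia. It was at 0 counts in untreated glia, so it was at least 300.5-fold higher against a floor of 3 counts over the group. All 18 were also higher in treated glia than with LPS alone, by 0.89 (Gbp3) to 4.43 (Gbp8) on the log2 scale among genes with counts in untreated glia. GBP genes and the pair Tgtp1 and Tgtp2 share near-identical stretches, so the split of reads among them is uncertain, and Gbp4 moved to 10.54 from 9.82 on leaving out untreated replicate 3.

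Antiviral genes known from the type I interferon response rose without exception in the list used. All 29 measured genes rose, with a median log2 fold change of 5.17 and a range of 2.04 (Eif2ak2, the kinase PKR) to 8.74 (Mx1, a GTPase against influenza virus). Mx1 had 303, 331 and 341 CPM in treated glia, against 0.5896, 0.987 and 0.667 CPM in untreated glia. Rsad2 (viperin) had 1290.1, 1664 and 1487 CPM in treated glia, against 2.305, 7.503 and 7.01 CPM in untreated glia. Ifit2, which binds foreign RNA, had 2924, 3811 and 3505 CPM in treated glia, against 61.7, 87.7 and 94.01 CPM in untreated glia. The RNA sensors moved less: Ddx58 (RIG-I) had 305, 359 and 340.5 CPM in treated glia, against 42.7, 45.9 and 46.9 CPM in untreated glia, and Ifih1 (MDA5) rose by 3.54 ± 0.14 on the log2 scale. Zbp1, a sensor of Z-form nucleic acids that can start necroptosis, had 431, 378 and 390.0 CPM in treated glia, against 0.643, 3.702 and 3.003 CPM in untreated glia. Against LPS alone, 17 of 29 were higher in treated glia and 0 lower, and Ifit2 differed by 2.56 ± 0.17 while Ddx58 (-0.067 ± 0.082), Ifit1 (0.26 ± 0.30) and Oas1a (0.16 ± 0.17) were not called. For Isg15, Ifit1, Ifi44, Oasl2 and Rsad2 the library labelled untreated replicate 1 was the lowest of its group. Isg15, a ubiquitin-like protein, had 1514, 1329 and 1238 CPM in treated glia, against 6.22, 24.3 and 18.7 CPM in untreated glia.

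Class I antigen presentation rose as a whole. All 21 measured genes rose (median 4.17 on the log2 scale), and the list took 2.67% to 2.94% of all counts in treated libraries, against 0.322% to 0.373% in untreated libraries. B2m had 6480.5, 6278 and 6205 CPM in treated glia, against 335, 367 and 354 CPM in untreated glia. H2-K1, a classical heavy chain, had 5510.3, 4914 and 5017 CPM in treated glia, against 134, 177 and 169 CPM in untreated glia. Tap1, a subunit of the peptide transporter, had 1015, 869 and 891 CPM in treated glia, against 20.9, 29.3 and 21.7 CPM in untreated glia. The immunoproteasome subunits Psmb8, Psmb9 and Psmb10 rose by 5.23 ± 0.15, 5.36 ± 0.15 and 4.01 ± 0.13, and the proteasome activator genes Psme1 and Psme2 by 3.28 ± 0.11 and 3.16 ± 0.11 on the log2 scale. The non-classical heavy chain H2-T23 (Qa-1) had 2686, 2285 and 2351 CPM in treated glia, against 18.01, 29.9 and 31.5 CPM in untreated glia. The smallest rises were those of the endoplasmic reticulum chaperones Canx (0.61 ± 0.068), Pdia3 (1.14 ± 0.078) and Calr (1.15 ± 0.077). H2-Q6 had the largest fitted rise (9.86 ± 0.21), but the H2-Q genes are near-identical copies among which reads may be split wrongly. All 21 genes were also higher than with LPS alone.

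Class II genes rose from very low levels. Of 14 measured genes 11 rose, 1 fell and 2 were not called, with a median of 2.99 on the log2 scale. H2-Ab1, the beta chain of I-A, had 371, 289 and 306 CPM in treated glia, against 0.965, 2.32 and 1.33 CPM in untreated glia. H2-Eb1 had 133, 102 and 104 CPM in treated glia, against 0.429, 0.444 and 0.667 CPM in untreated glia. H2-DMa, part of the peptide editor, had 122, 89.9 and 94.4 CPM in treated glia, against 9.33, 10.7 and 7.96 CPM in untreated glia. All 3 were separated between the groups. H2-Aa had 191, 153 and 152 CPM in treated glia, against 0.429, 0.148 and 0.8105 CPM in untreated glia, and its log2 fold change of 8.45 ± 0.27 became 9.15 on leaving out untreated replicate 3. The protease Ctss, which trims the invariant chain, had 351, 322 and 329.8 CPM in treated glia, against 263, 328 and 334 CPM in untreated glia and was not called (edgeR adjusted p = 0.304), and H2-Ob had 1.097, 0.749 and 0.573 CPM in treated glia, against 0.268, 0.691 and 0.858 CPM in untreated glia. Rfxap, a subunit of the RFX complex on class II promoters, was the member that fell (-0.54 ± 0.10), while its partners Rfx5 and Rfxank rose by 1.07 ± 0.11 and 0.73 ± 0.10. The peptide editor and its regulator parted the stimuli: H2-DMa differed from LPS alone by 3.79 ± 0.14 and H2-Oa by 2.81 ± 0.31, and 12 of 14 genes were higher in treated glia than with LPS alone.

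Molecules of co-stimulation, checkpoint and adhesion rose as well, 10 of 10 measured, with a median of 4.05 on the log2 scale when the gene at 0 counts is set at its bound and 4.26 as fitted. Cd40, the receptor for T cell help, had 71.9, 69.6 and 74.2 CPM in treated glia, against 0.429, 0.247 and 0.572 CPM in untreated glia. Cd86 had 113, 109.9 and 110.0 CPM in treated glia, against 2.197, 3.16 and 5.34 CPM in untreated glia. Cd274 (PD-L1), an inhibitory ligand, had 656, 823 and 865 CPM in treated glia, against 4.56, 6.76 and 6.44 CPM in untreated glia. Cd80, Tnfsf9 and Cd276 rose less, by 2.002 ± 0.16, 1.64 ± 0.24 and 0.76 ± 0.087 on the log2 scale. The adhesion molecules that hold leukocytes rose too: Icam1 had 487, 485 and 547 CPM in treated glia, against 25.7, 26.6 and 29.5 CPM in untreated glia. Vcam1 had 3185, 3565 and 3521 CPM in treated glia, against 129, 178 and 212 CPM in untreated glia. Against LPS alone Cd86 differed by 3.18 ± 0.19, Cd274 by 2.63 ± 0.14 and Cd40 by 2.43 ± 0.11 on the log2 scale. Slamf7, a receptor of activated immune cells with 1 count in untreated glia, had 130.2, 143 and 145 CPM in treated glia, a ratio of 8347 (95% counting interval 1498 to 329730.0).

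The receptors for LPS rose unevenly. Tlr4 itself had 16.5, 28.9 and 26.6 CPM in treated glia, against 18.7, 18.8 and 19.8 CPM in untreated glia and was not called (log2 fold change 0.33 ± 0.16, edgeR adjusted p = 0.0989). On leaving out treated replicate 1, the lowest treated library, it was called at 0.54 on the log2 scale. With LPS alone Tlr4 rose to 37.9, 38.7 and 41.3 CPM (1.04 ± 0.16), and treated glia were lower than LPS alone for Tlr4 by 0.71 ± 0.16. Its co-receptors rose: Cd14, which hands LPS over, had 478, 315 and 420.0 CPM in treated glia, against 23.4, 29.2 and 33.8 CPM in untreated glia, and Ly96 (MD-2), which binds LPS beside TLR4, had 6.97, 6.99 and 6.69 CPM in treated glia, against 2.63, 2.02 and 1.62 CPM in untreated glia. Tlr2, the receptor of bacterial lipoproteins, had 702, 585 and 737 CPM in treated glia, against 39.2, 40.97 and 55.9 CPM in untreated glia. Tlr3, the receptor of double-stranded RNA, rose by 2.84 ± 0.11 on the log2 scale. Of the adaptors and kinases, Myd88 rose by 2.06 ± 0.10 and Irak2 by 1.01 ± 0.10, whereas Ticam2 (-0.010 ± 0.26) and Traf6 (0.28 ± 0.14) were not called. Without treated replicate 1 Traf6 was called at 0.42. Irak4 fell by 0.25 ± 0.089 on the log2 scale, a call lost without the library labelled untreated replicate 1 (-0.21 ± 0.10), treated replicate 1 (-0.23), treated replicate 3 (-0.20) or untreated replicate 3 (-0.25).

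NF-kB genes and their feedback inhibitors rose together. In the whole list 22 of 26 genes rose, 1 fell and 3 were not called (median 2.17 on the log2 scale). Among the subunits, Nfkb2 rose by 2.28 ± 0.085, Relb by 1.95 ± 0.11, Nfkb1 by 1.27 ± 0.074, Rela by 0.79 ± 0.10 and Rel by 0.57 ± 0.16. The inhibitor Nfkbia (IkB-alpha) had 453, 413 and 499 CPM in treated glia, against 27.98, 37.1 and 43.0 CPM in untreated glia. Tnfaip3 (A20), a ubiquitin-editing brake, had 144, 168 and 193 CPM in treated glia, against 7.56, 7.503 and 8.39 CPM in untreated glia. Nfkbie had 125, 96.7 and 127 CPM in treated glia, against 5.896, 5.92 and 7.199 CPM in untreated glia. Irak3, a brake of myeloid Toll-like receptor signalling, had 14.6, 15.7 and 17.9 CPM in treated glia, against 2.84, 2.81 and 2.098 CPM in untreated glia. The stimuli differed for it, with a log2 fold change of 2.64 ± 0.14 in treated glia, 3.90 ± 0.14 with LPS alone and a direct difference of -1.27 ± 0.12. The values against untreated glia share their controls. Tnip1 (-0.002 ± 0.079) and Zc3h12a (0.063 ± 0.10) did not pass the direct test.

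Chemokines included several of the largest rises. Of 24 measured chemokine genes 22 rose, 0 fell and 2 were not called, with a median log2 fold change of 5.33 when genes with 0 to 3 counts in untreated glia are set at their bound or count ratio (5.83 as fitted). The ligands of CXCR3, a receptor on T cells, led. Cxcl9 (chr5:92321347-92328079 in mm10) had 2816, 3352 and 3148 CPM in treated glia, against 0, 0.0494 and 0.191 CPM in untreated glia. Cxcl10 had 6837, 6421 and 6861 CPM in treated glia, against 4.13, 11.7 and 15.5 CPM in untreated glia. Cxcl11 had 647, 609.6 and 671 CPM in treated glia and 1 count in untreated glia, a ratio of 38458 (95% counting interval 6902 to 1519100.0). The deposited annotation types Cxcl11 as a polymorphic pseudogene, and its protein was not measured. The fitted rise of Cxcl9, 15.07 ± 0.34 on the log2 scale, rests on 5 counts in untreated glia and became 16.53 on leaving out untreated replicate 3.

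Monocyte attractants rose next. Ccl2 had 3775, 3444 and 3814 CPM in treated glia, against 2.36, 1.68 and 3.86 CPM in untreated glia. Ccl7 had 2019.9, 1804 and 1914 CPM in treated glia, against 0.322, 0.296 and 1.05 CPM in untreated glia, and its log2 fold change of 11.70 ± 0.27 became 12.57 without untreated replicate 3. Ccl8 had 29.2, 29.3 and 24.97 CPM in treated glia and 0 counts in untreated glia, at least 555-fold higher. Ccl5 (RANTES), an attractant of T cells and monocytes, had 6158, 5355 and 5638 CPM in treated glia, against 0.858, 2.57 and 2.38 CPM in untreated glia. Cx3cl1, the ligand of the microglial receptor CX3CR1, had 535, 467 and 521 CPM in treated glia, against 48.4, 49.7 and 51.8 CPM in untreated glia, a rise of 3.34 ± 0.074 on the log2 scale. Cxcl12 had 668, 685 and 731 CPM in treated glia, against 26.5, 37.5 and 33.5 CPM in untreated glia. Neutrophil attractants rose too, with 307, 273 and 414 CPM of Cxcl1 in treated glia, against 0.214, 0.444 and 1.86 CPM in untreated glia. Its log2 fold change of 8.57 ± 0.39 became 9.93 without untreated replicate 3.

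Chemokines also parted LPS with IFN-gamma from LPS alone in both directions, 11 of 24 higher and 8 lower in treated glia. Higher were Cxcl9 by 5.76 ± 0.20, Ccl2 by 2.26 ± 0.15 and Ccl7 by 2.14 ± 0.16 on the log2 scale. Lower were Ccl3 (-1.93 ± 0.12), Ccl4 (-1.03 ± 0.11), Ccl9 (-2.57 ± 0.23), Ccl6 (-1.74 ± 0.27), Cxcl5 (-1.60 ± 0.27) and Cxcl2 (-1.12 ± 0.20), whose rise over untreated glia, 4.18 ± 0.29, became 4.81 without untreated replicate 3. Ccl3 had 29.7, 35.9 and 27.96 CPM with LPS and IFN-gamma, 110.3, 124 and 122 CPM with LPS alone and 2.68, 2.71 and 3.58 CPM untreated. Cxcl14, with 139.7, 126 and 132 CPM in treated glia, against 149.6, 90.2 and 88.01 CPM in untreated glia, was not called, and without the library labelled untreated replicate 1 it was called at 0.58 ± 0.078 on the log2 scale. Ccl6 was not called against untreated glia (-0.25 ± 0.28) unless treated replicate 2 was left out (-0.79), and near-identical stretches among Ccl genes leave the split of some reads uncertain.

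Among cytokines 18 of 22 measured genes rose, 1 fell and 3 were not called, with a median of 3.98 on the log2 scale when genes with 0 to 3 counts in a group are set at their bound or ratio. Il6 had 63.2, 83.8 and 87.6 CPM in treated glia, against 0.161, 0.0987 and 0.143 CPM in untreated glia. Il1b had 393, 306 and 367 CPM in treated glia, against 0.482, 2.22 and 3.86 CPM in untreated glia, and its log2 fold change of 7.31 ± 0.36 became 8.002 without untreated replicate 3. Tnf had 30.9, 30.4 and 24.3 CPM in treated glia, against 1.77, 1.09 and 1.95 CPM in untreated glia. These are the classical pro-inflammatory cytokines. Il12b, the p40 chain shared by IL-12 and IL-23, had 36.6, 37.9 and 41.8 CPM in treated glia and 1 count in untreated glia, a ratio of 2322 (95% counting interval 416 to 91746). Its partner genes Il12a and Il23a did not reach the count filter, with 0 to 5 counts per library. Il27 had 5.23, 6.11 and 4.904 CPM in treated glia, a ratio of 325 (95% counting interval 57.7 to 12870.0). Tnfsf10 (TRAIL) had 101, 137 and 113 CPM in treated glia, against 0.429, 0.691 and 0.334 CPM in untreated glia. Ifnb1, the gene of interferon-beta, had 1.16, 1.31 and 1.72 CPM in treated glia and 0 counts in untreated glia, at least 27.9-fold higher.

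Colony-stimulating factors and Lif, a cytokine of the interleukin-6 family, rose with them. Csf1 had 1994, 1897 and 2134 CPM in treated glia, against 559.9, 259 and 274 CPM in untreated glia. Csf3 (G-CSF) was at 0 counts in untreated glia and at least 57.9-fold higher, and Csf2 (GM-CSF) at least 24.5-fold higher. Lif had 65.1, 74.6 and 78.5 CPM in treated glia, against 8.09, 3.702 and 3.91 CPM in untreated glia. Il15, a survival factor of natural killer cells, rose by 3.50 ± 0.15 on the log2 scale. Regulatory cytokines did not move as a group: Il1rn, the IL-1 receptor antagonist, had 229, 234 and 256 CPM in treated glia, against 0.5896, 0.938 and 1.86 CPM in untreated glia, whereas Tgfb2 fell to 34.5, 36.3 and 38.5 CPM in treated glia, against 49.6, 50.5 and 55.2 CPM in untreated glia. Tgfb1 (-0.24 ± 0.10, edgeR adjusted p = 0.0581) and Il33 (-0.33 ± 0.14) were not called. Tgfb1 was called lower on leaving out treated replicate 1 (-0.37) or untreated replicate 2 (-0.30), and Il33 without the library labelled untreated replicate 1 (-0.50 ± 0.12). Il10 had 4 counts over the treated and 2 over the untreated libraries and was not called, while it had 0.8804, 1.57 and 1.36 CPM with LPS alone. Il33 (-1.22 ± 0.14) and Il1a (-0.93 ± 0.11) were likewise lower than with LPS alone, and Lif (2.72 ± 0.20), Il15 (1.47 ± 0.13) and Csf1 (1.55 ± 0.21) higher.

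Enzymes that make nitric oxide, itaconate and prostaglandins rose steeply. In the list of nitric oxide, arginine and oxidant genes 14 of 17 rose, 0 fell and 3 were not called (median 2.23). Without the library labelled untreated replicate 1, 16 rose and 1 was not called. Nos2, the inducible nitric oxide synthase (chr11:78920787-78960254 in mm10), had 798, 935 and 941 CPM in treated glia, against 0.0536, 0.0987 and 0.0954 CPM in untreated glia, a log2 fold change of 13.27 ± 0.28. Acod1, which makes itaconate, had 565, 581 and 579 CPM in treated glia, against 0.965, 0.543 and 1.33 CPM in untreated glia. Ptgs2 (cyclooxygenase-2) had 365, 647 and 618 CPM in treated glia, against 21.5, 13.1 and 17.2 CPM in untreated glia, and Ptges, the prostaglandin E synthase, 315, 289 and 336 CPM in treated glia, against 13.9, 13.2 and 14.1 CPM in untreated glia. Gch1, which supplies the cofactor of nitric oxide synthases, rose by 3.58 ± 0.14 and the arginine transporter Slc7a2 by 1.59 ± 0.15 on the log2 scale. Arginase-1, which competes for arginine, also rose: Arg1 had 8.52, 17.5 and 11.8 CPM in treated glia, against 0.268, 0.296 and 0.524 CPM in untreated glia. It was lower than with LPS alone by 1.15 ± 0.20 on the log2 scale, whereas Nos2 was higher by 3.43 ± 0.15. Ass1, which recycles citrulline to arginine, had 404, 357 and 343 CPM in treated glia, against 551, 221 and 208 CPM in untreated glia; it was not called, and without the library labelled untreated replicate 1 it was called higher at 0.78 ± 0.10. Among the NADPH oxidase genes Cybb rose by 2.23 ± 0.13 and Ncf4 by 1.22 ± 0.14, and Sod2, the mitochondrial superoxide dismutase, by 3.08 ± 0.091. Ido1, a tryptophan-degrading enzyme, had a mean of 7.304 CPM in treated glia, against 0.0636 CPM in untreated glia, where all 4 counts were in replicate 3.

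Genes of inflammasomes, pyroptosis, necroptosis and apoptosis rose in 19 of 22 cases and fell in 2, with a median of 1.16. Casp4, the mouse sensor of cytosolic LPS, had 147, 137 and 136 CPM in treated glia, against 1.13, 1.83 and 1.91 CPM in untreated glia. Mlkl, the executor of necroptosis, had 212, 205 and 195 CPM in treated glia, against 3.32, 3.21 and 2.19 CPM in untreated glia. Casp1 had 109, 102 and 96.7 CPM in treated glia, against 6.91, 6.96 and 6.25 CPM in untreated glia. Gsdmd, the pore former that inflammatory caspases cut, had 65.9, 60.9 and 56.2 CPM in treated glia, against 6.43, 6.32 and 4.10 CPM in untreated glia. By contrast Gsdme, cut by an apoptotic caspase, fell to 20.1, 12.04 and 13.2 CPM in treated glia, against 41.6, 31.1 and 28.4 CPM in untreated glia. Bcl2, a survival gene, was the other that fell (-0.27 ± 0.11), a call lost on leaving out treated replicate 1 (-0.15), untreated replicate 2 (-0.29) or untreated replicate 3 (-0.20). Bbc3 (PUMA) and Bax, which promote apoptosis, rose by 0.99 ± 0.10 and 0.90 ± 0.12, and Bcl2l1 and Mcl1, which oppose it, by 0.73 ± 0.12 and 0.43 ± 0.066 on the log2 scale. Pmaip1 (NOXA) had 10.3, 16.3 and 14.4 CPM in treated glia, against 25.03, 9.87 and 10.1 CPM in untreated glia; its fitted difference was -0.13 ± 0.29 and not called, and without the library labelled untreated replicate 1 it was called higher at 0.46 ± 0.17. Against LPS alone 16 of the 22 were higher and 0 lower, among them Ninj1, needed for membrane rupture, higher by 1.18 ± 0.15.

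Complement genes split by pathway step. Of 16 measured genes 9 rose, 5 fell and 2 were not called, beside 29.5% higher and 28.6% lower over all genes tested. C3 had 6194, 6247 and 6677 CPM in treated glia, against 343, 479 and 553 CPM in untreated glia. C1ra, a protease of the classical pathway, had 690.3, 612 and 660.2 CPM in treated glia, against 35.9, 29.9 and 26.9 CPM in untreated glia. C1s1, its substrate and partner, had 584, 589.7 and 620.3 CPM in treated glia, against 31.3, 28.1 and 27.8 CPM in untreated glia. C2 rose by 5.71 ± 0.28 and their inhibitor Serping1 by 4.24 ± 0.28 on the log2 scale. Cfb, the protease of the alternative pathway with 3 counts in untreated glia, had 17.03, 21.6 and 25.2 CPM in treated glia, a ratio of 426 (95% counting interval 145 to 2067). All of those untreated counts were in the library labelled untreated replicate 1, and without it Cfb was at 0 counts in untreated glia. The chains of C1q, which microglia make, went the other way: C1qa had 215, 176 and 168 CPM in treated glia, against 294, 376 and 363 CPM in untreated glia, C1qc fell by 0.69 ± 0.11, and C1qb was not called (-0.25 ± 0.12; -0.33 ± 0.11 and called without the library labelled untreated replicate 1, -0.34 and called without treated replicate 1). The regulator Cd59a, which protects host cells, fell by 2.16 ± 0.12 on the log2 scale. Cd55, another, also fell (-1.04 ± 0.35), but its call was lost on leaving out treated replicate 1, treated replicate 3, untreated replicate 2 or untreated replicate 3, with log2 fold changes of -0.88, -1.02, -0.72 and -0.92.

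**Figure D3:**
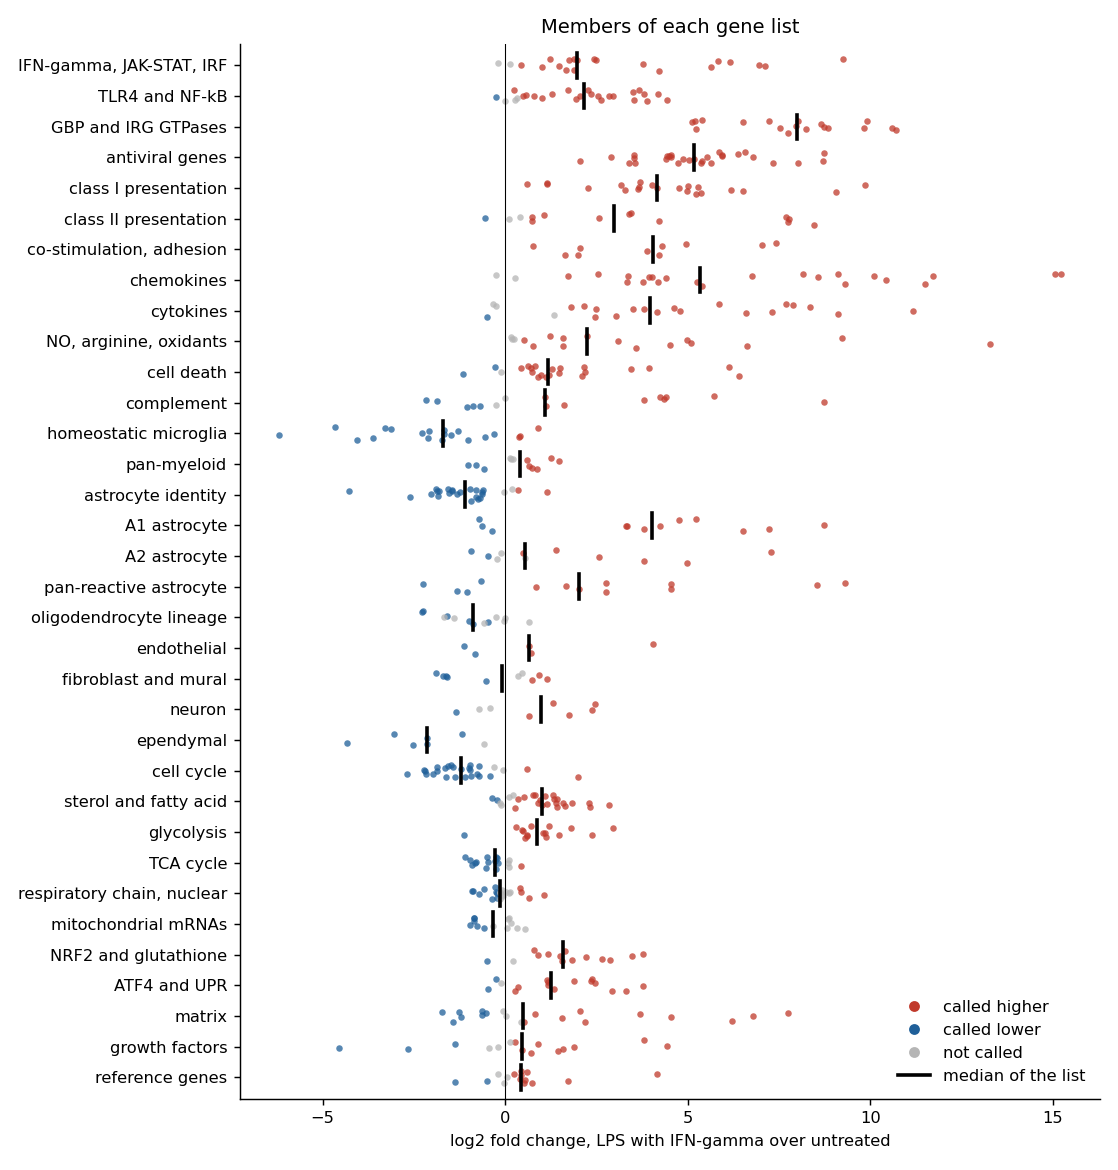
Each point is a measured gene of a list at its log2 fold change, LPS with IFN-gamma over untreated (horizontal axis), coloured by call, with genes at 0 to 3 counts in a group set at their bound or count ratio; black bars are list medians. All GTPase, antiviral, class I and co-stimulation genes lie right of 0, while microglial homeostatic, astrocyte identity, ependymal and cell cycle genes lie mostly left of it.

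Among protein-coding genes averaging 5 CPM or more in 1 group, with separate groups and no clone name, the 12 largest fitted rises were those of Cxcl9, Serpina3f, Nos2, Slamf7, Ccl8, Ccl7, Ccl5, Gbp2b, Ubd, Gbp10, Il12b and Calhm6. For genes at 0 to 3 counts in untreated glia, such as Ccl8 and Gbp2b, the place in this order depends on the prior count of the fit, and at their bounds they would stand lower. Serpina3f, a serine protease inhibitor, had 69.7, 80.5 and 69.5 CPM in treated glia and 0 counts in untreated glia, at least 1463-fold higher, though Serpina3 copies are similar enough to share reads. Ubd (FAT10), a ubiquitin-like modifier induced by interferon-gamma and tumour necrosis factor, had 210.3, 171 and 201 CPM in treated glia, against 0.0536, 0.0494 and 0.143 CPM in untreated glia, and its log2 fold change of 11.07 ± 0.31 became 11.70 without untreated replicate 3. Calhm6 (Fam26f), a channel protein of activated macrophages, had 327, 271 and 329 CPM in treated glia, against 0.322, 0.148 and 0.0954 CPM in untreated glia. In all, 5 genes had 0 counts in untreated libraries and at least 5 CPM in treated libraries, and 23 had 0 to 3 counts there. They include, beside genes already named, the following chosen after their values were seen: Slfn4 (at least 118-fold higher), Majin (at least 117-fold higher), Ccl22 with a ratio of 1092 (95% counting interval 302 to 9027), Ccr7, the receptor that guides dendritic cells to lymph nodes, with a ratio of 811 (95% counting interval 224 to 6702) and with its untreated counts all in the library labelled untreated replicate 1, and the cytokine Il19 with a ratio of 663 (95% counting interval 118 to 26241). The reverse was rare, with 2 genes at 0 to 3 counts in treated glia and at least 5 CPM untreated.

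By the same rule the 12 largest fitted falls were those of Capn3, Slco2b1, Fam107a, Mrc1, Gpr34, Elobl, Gpr183, Defb1, Hapln1, Rpe65, Sstr2 and Myb. Capn3, a calpain protease, had 1 count in treated glia against 372 in untreated glia, a ratio of 0.00341 (95% counting interval 8.61e-05 to 0.0191). Slco2b1, an organic anion transporter found in microglia, had 0.323, 0.125 and 0.191 CPM in treated glia, against 19.4, 31.3 and 33.1 CPM in untreated glia. Mrc1 (CD206), the mannose receptor of macrophages, had 0.258, 0.624 and 0.318 CPM in treated glia, against 27.9, 36.7 and 30.5 CPM in untreated glia. Fam107a, a gene of astrocytes and radial glia, had 1.48, 1.12 and 0.701 CPM in treated glia, against 60.5, 105 and 92.8 CPM in untreated glia. Every treated library lay below every untreated library for these genes, as the rule that picked them requires. Gpr34, a lysophosphatidylserine receptor of microglia, had 0.516, 0.125 and 0 CPM in treated glia, against 13.3, 18.8 and 15.9 CPM in untreated glia, and its log2 fold change of -6.20 ± 0.51 became -7.84 without treated replicate 1. Gpr183, an oxysterol receptor, moved likewise to -7.41 from -5.86 ± 0.61. Elobl was at -5.88 ± 0.32, or -6.60 without treated replicate 2, and Rpe65 at -5.40 ± 0.53, or -5.996 without it. Defb1 had 0.323, 0.249 and 0.127 CPM in treated glia, against 28.2, 6.07 and 6.29 CPM in untreated glia and a log2 fold change of -5.81 ± 0.72, or -4.69 ± 0.37 without the library labelled untreated replicate 1. Hapln1, a linker of the hyaluronan matrix, had 0.258, 0.437 and 0.509 CPM in treated glia, against 16.9, 16.6 and 18.4 CPM in untreated glia. Sstr2, a somatostatin receptor, had 0.129, 0.249 and 0.191 CPM in treated glia, against 7.88, 7.45 and 8.20 CPM in untreated glia, and Myb 0.645, 0.686 and 0.446 CPM in treated glia, against 4.29, 25.6 and 27.9 CPM in untreated glia.

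Genes of homeostatic microglia fell together. Of 20 measured genes 17 fell and 3 rose, with a median of -1.71 on the log2 scale, and their summed level was 576 to 584 CPM in treated libraries, against 1608 to 1792 CPM in untreated libraries. P2ry12, the ADP receptor that steers microglial processes, had 1.03, 1.75 and 0.701 CPM in treated glia, against 13.1, 21.8 and 23.7 CPM in untreated glia. Tmem119 had 3.42, 4.55 and 4.39 CPM in treated glia, against 38.1, 58.6 and 55.5 CPM in untreated glia. Cx3cr1, the fractalkine receptor, had 21.3, 20.9 and 19.6 CPM in treated glia, against 163, 177 and 197 CPM in untreated glia. Its groups were far apart, while its ligand Cx3cl1 rose as given above. Trem2, a lipid receptor of phagocytes, had 9.096, 6.24 and 6.88 CPM in treated glia, against 63.2, 85.3 and 69.4 CPM in untreated glia. Csf1r, whose signal microglia need to survive, had 115, 106 and 108 CPM in treated glia, against 355, 343 and 356 CPM in untreated glia. The members that rose were P2ry6 (0.39 ± 0.10), Mertk (0.91 ± 0.094), a receptor for the uptake of dying cells, and Bin1 (0.40 ± 0.084). Mertk parted the stimuli, with 42.1, 48.03 and 47.96 CPM with LPS and IFN-gamma, 12.9, 12.8 and 13.2 CPM with LPS alone and 21.2, 25.3 and 26.8 CPM untreated, a direct difference of 1.83 ± 0.10 on the log2 scale. Cd33 and Tmem119 were lower than with LPS alone by 2.04 ± 0.18 and 1.94 ± 0.18. Siglech and Slc2a5 did not reach the count filter; Siglech had 0 counts in each treated library and 6 to 19 in untreated libraries. The fall of Mef2c (-0.31 ± 0.10) was lost without the library labelled untreated replicate 1 (-0.22 ± 0.10) or treated replicate 1 (-0.23).

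Pan-myeloid genes did not follow. Of 12 measured 6 rose, 3 fell and 3 were not called (median 0.41), beside 29.5% higher and 28.6% lower over all genes tested. Their summed level was 826 to 866 CPM in treated libraries, against 685 to 710.4 CPM in untreated libraries. Ptprc (CD45) had 46.97, 62.1 and 54.5 CPM in treated glia, against 37.8, 29.9 and 31.5 CPM in untreated glia. Aif1 (IBA1) had 45.9, 33.4 and 34.3 CPM in treated glia, against 21.1, 21.2 and 19.4 CPM in untreated glia. Adgre1 (F4/80) had 141, 179 and 168 CPM in treated glia, against 63.7, 68.1 and 71.4 CPM in untreated glia. Fcer1g rose by 1.46 ± 0.11 on the log2 scale, while its fellow signalling adaptor Tyrobp (DAP12) fell by 1.004 ± 0.12. Itgam (CD11b), Cd53 and Coro1a were not called against untreated glia, although Cd53 was called at 0.30 without treated replicate 1. Against LPS alone 7 of 12 were lower and 1 higher, among them Adgre1 (-1.40 ± 0.10) and Itgam (-1.32 ± 0.14) lower and Cd68 (0.95 ± 0.10), a lysosomal protein, higher. Markers of blood leukocytes were at or near 0: none of the 11 genes listed, which mark monocytes, neutrophils, T, B and natural killer cells, reached the count filter, with 0 to 9 counts per library, and S100a9 and Cd3e at 0 in all 6 libraries.

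Astrocyte identity genes fell in 22 of 26 cases, rose in 2 and were not called in 2, with a median of -1.10 on the log2 scale. Without the library labelled untreated replicate 1, 22 fell, 3 rose and 1 was not called. Gfap had 4119, 3554 and 3241 CPM in treated glia, against 7926, 9879 and 9227 CPM in untreated glia. Kcnj10 (Kir4.1), the potassium channel that buffers extracellular potassium, had 199, 222 and 188 CPM in treated glia, against 715, 839 and 923 CPM in untreated glia. Gja1, the gap junction protein connexin 43, had 124, 147 and 148 CPM in treated glia, against 329.7, 587 and 602 CPM in untreated glia. Their groups did not overlap. Slc39a12, a zinc transporter, had 11.1, 12.3 and 10.9 CPM in treated glia, against 226, 213 and 229 CPM in untreated glia, the largest fall of the list (-4.28 ± 0.084 on the log2 scale). Aqp4, the water channel of endfeet, had 526, 665 and 656 CPM in treated glia, against 840.0, 1108 and 1253 CPM in untreated glia. Fabp7 (BLBP) had 166, 141 and 140.3 CPM in treated glia, against 459, 587 and 562 CPM in untreated glia. The transporters that clear glutamate did not fall: Slc1a3 (GLAST) had 1294, 1379 and 1428 CPM in treated glia, against 1221, 1449 and 1529 CPM in untreated glia and was not called, with a 95% interval within 0.25 of 0 on the log2 scale, and Slc1a2 (GLT-1) rose to 457, 621 and 606 CPM in treated glia, against 168, 269.8 and 331 CPM in untreated glia. Clu (clusterin) was the other gene that rose (0.35 ± 0.11); on leaving out treated replicate 1 it was at 0.25 and not called. The fall of Ndrg2 (-0.69 ± 0.27) lost its call on leaving out any library other than that labelled untreated replicate 1. Gjb6, under 3 CPM in all libraries, lost its call without untreated replicate 3 (-1.39).

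Set against LPS alone, 17 of the 26 astrocyte genes were lower in treated glia and 0 higher. Glul, which turns glutamate into glutamine, had 185, 170.4 and 165 CPM with LPS and IFN-gamma, 718, 685 and 714 CPM with LPS alone and 1129, 1009 and 1049 CPM untreated, a direct difference of -2.02 ± 0.083. Aqp4 had 526, 665 and 656 CPM with LPS and IFN-gamma, 1370.2, 1432 and 1430.3 CPM with LPS alone and 840.0, 1108 and 1253 CPM untreated, a direct difference of -1.20 ± 0.13 on the log2 scale. Gpr37l1 (-1.15 ± 0.13), Fabp7 (-1.10 ± 0.12) and Kcnj10 (-0.96 ± 0.10) also lay below LPS alone. Slc4a4, a bicarbonate transporter, fell against untreated glia (-1.90 ± 0.19) but did not pass the direct test (-0.033 ± 0.18).

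Genes described in reactive astrocytes moved by list. Of 12 genes of the so-called A1 profile 9 rose and 3 fell (median 4.02). Those that rose include C3, Gbp2, Iigp1, H2-T23, H2-D1 and Psmb8, which also stand in the lists above. Apart from such shared genes, Amigo2, an adhesion protein, had 38.5, 33.7 and 31.5 CPM in treated glia, against 3.81, 3.01 and 3.72 CPM in untreated glia, and Srgn, a granule proteoglycan, 149, 140.2 and 148 CPM in treated glia, against 17.2, 13.7 and 12.2 CPM in untreated glia. Ggta1, Fbln5 and Fkbp5 fell by 0.35 ± 0.065, 0.63 ± 0.17 and 0.72 ± 0.12 on the log2 scale. Of 11 measured A2 genes 6 rose, 2 fell and 3 were not called; without the library labelled untreated replicate 1 the counts were 7, 4 and 0, and the median 1.37 in place of 0.55. The pentraxin Ptx3 had 3899.8, 3942 and 4155 CPM in treated glia, against 35.4, 20.7 and 21.8 CPM in untreated glia. Clcf1, a cytokine of the interleukin-6 family, had 74.4, 54.3 and 66.7 CPM in treated glia, against 82.9, 26.02 and 24.6 CPM in untreated glia, not called with all libraries and called higher at 1.37 ± 0.13 without the library labelled untreated replicate 1. Sphk1, which makes sphingosine-1-phosphate, was at 1.40 ± 0.39 with it and 2.36 ± 0.17 without it. S100a10 fell (-0.47 ± 0.18), and lost that call on leaving out treated replicate 2, treated replicate 3, untreated replicate 2 or untreated replicate 3 (-0.31 to -0.45). Among pan-reactive genes 9 of 13 rose, with Timp1 at 1092, 1105 and 955 CPM in treated glia, against 43.04, 49.2 and 43.1 CPM in untreated glia, and Cd44, the hyaluronan receptor, at 1323, 1305 and 1451 CPM in treated glia, against 246, 174 and 184 CPM in untreated glia. Vim, Gfap, Hspb1 and Aspg fell.

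For the oligodendrocyte lineage several calls rested on the library labelled untreated replicate 1. With all libraries 6 of 13 measured lineage genes fell, 0 rose and 7 were not called; without that library 10 fell and 3 were not called, with medians of -0.88 and -1.14. Pdgfra, the receptor of oligodendrocyte precursors, had 30.0, 43.3 and 37.6 CPM in treated glia, against 3.91, 135 and 154 CPM in untreated glia; it was not called, and without that library it fell (-1.96 ± 0.12 on the log2 scale). Sox10 had 20.8, 15.5 and 17.6 CPM in treated glia, against 0.161, 33.4 and 30.1 CPM in untreated glia, with -0.82 ± 0.13 and a call without that library. Olig1 did not depend on it: it had 86.0, 75.5 and 74.2 CPM in treated glia, against 404, 381 and 353 CPM in untreated glia, a log2 fold change of -2.27 ± 0.10. Cspg4 (NG2), with 22.4, 28.8 and 23.6 CPM in treated glia, against 19.2, 26.6 and 28.5 CPM in untreated glia, was not called in either fit. Gpr17 and Bcas1, genes of committed precursors, were at -1.68 ± 0.74 and -0.57 ± 0.72 with all libraries, not called, and fell at -2.25 ± 0.25 and -1.14 ± 0.20 without it. Mog and Mobp, genes of mature myelin, did not reach the count filter, with 0 to 4 counts per library.

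Ependymal genes of motile cilia fell in 6 of 7 measured cases, or 7 of 7 without the library labelled untreated replicate 1. Ccdc153 had 1.55, 0.749 and 0.701 CPM in treated glia, against 1.45, 32.6 and 26.8 CPM in untreated glia. Rsph1, a radial spoke protein, had 12.6, 10.2 and 10.1 CPM in treated glia, against 19.9, 62.9 and 62.2 CPM in untreated glia. Foxj1, the master regulator of motile cilia, had 271, 243 and 250.2 CPM in treated glia, against 188, 486 and 469 CPM in untreated glia, at -0.58 ± 0.24 and not called with all libraries, and -0.90 ± 0.071 with a call without that library. For all 3 that library lay closer to the treated libraries than to the other untreated ones. The summed level of the list was 283 to 317 CPM in treated libraries, against 242 to 720.4 CPM in untreated libraries. The part of ependymal and oligodendrocyte RNA in the other results was not tested.

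**Figure D4:**
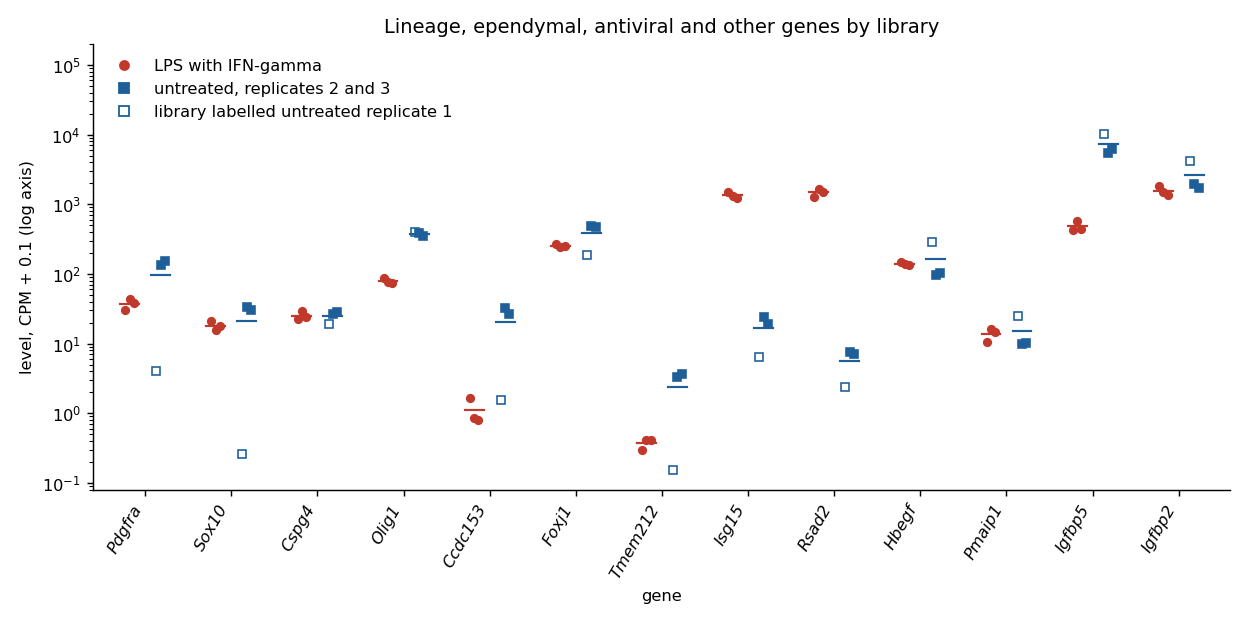
Levels as CPM + 0.1 on a log axis for 13 genes, 1 point per library, LPS with IFN-gamma left of untreated for each gene; the open square is the library labelled untreated replicate 1. For Pdgfra, Sox10 and the ciliary genes the open square lies below the filled untreated points, for Hbegf, Pmaip1 and Igfbp2 above them.

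Markers of other cell types were also measured, with summed levels of 3355 to 5476 CPM in treated and 2826 to 4524 CPM in untreated libraries for fibroblast and mural genes and of 46.6 to 65.2 CPM in treated and 28.3 to 40.6 CPM in untreated libraries for endothelial genes. Their part in the other results was not tested. Of 5 measured endothelial genes Pecam1 had 7.48, 6.799 and 7.58 CPM in treated glia, against 0.268, 0.444 and 0.572 CPM in untreated glia and rose, as did Cdh5 (0.66 ± 0.12), while Kdr fell (-0.84 ± 0.27) with a call lost on leaving out treated replicate 1, untreated replicate 2 or untreated replicate 3 (-0.65, -0.75 and -0.72). In all 3 endothelial genes rose and 2 fell, or 2 rose and 2 fell without the library labelled untreated replicate 1. Cldn5 was at 0 counts in all 6 libraries. Erg and Emcn did not reach the count filter either. Both had 0 counts in each treated library, against 4, 10 and 7 (Erg) and 0, 2 and 0 (Emcn) in untreated libraries. Of fibroblast and mural genes 3 of 10 rose and 5 fell, beside 29.5% higher and 28.6% lower over all genes tested. Without the library labelled untreated replicate 1, 2 rose and 5 fell. Dcn had 146, 186 and 148 CPM in treated glia, against 18.97, 101 and 96.1 CPM in untreated glia, while Acta2 fell to 356, 313 and 287 CPM in treated glia, against 1354, 1128 and 1099 CPM in untreated glia. Treated replicate 2 was the highest library for the collagen genes, with Col1a1 at 829.7, 1403 and 848 CPM in treated glia and 439, 1062 and 930.0 CPM in untreated glia, not called. Dcn lost its call without treated replicate 2 (1.01), and its log2 fold change was 0.70 without the library labelled untreated replicate 1. Among neuronal genes 5 of 8 measured rose and 1 fell, to be set beside the same shares over all genes. Without the library labelled untreated replicate 1, 5 rose and 3 fell, Snap25 and Syt1 being then called lower. Tubb3 had 114, 98.7 and 105 CPM in treated glia, against 45.9, 45.3 and 38.2 CPM in untreated glia, and Map2, the member that fell, 67.3, 86.1 and 94.8 CPM in treated glia, against 152, 224 and 254 CPM in untreated glia. Slc17a6 was at 0 counts in all 6 libraries and Rbfox3 (NeuN) had 0 to 6 counts per library.

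Proliferation genes fell. Of 27 cell cycle genes 23 fell, 2 rose and 2 were not called, with a median of -1.22 on the log2 scale. Mki67 (Ki-67) had 4.58, 7.24 and 5.03 CPM in treated glia, against 48.3, 27.6 and 32.7 CPM in untreated glia. Ccna2 (cyclin A2) had 3.61, 5.74 and 3.57 CPM in treated glia, against 22.4, 19.99 and 17.2 CPM in untreated glia. Kif11, a spindle motor, had 5.55, 5.68 and 7.13 CPM in treated glia, against 27.5, 28.3 and 29.7 CPM in untreated glia. Their groups did not overlap. The helicase genes Mcm2 to Mcm7 fell by 0.41 (Mcm7) to 1.49 (Mcm5) on the log2 scale. The mitotic genes Cenpf (-2.18 ± 0.25) and Cdc20 (-1.97 ± 0.21) fell as well. Pcna had 93.3, 95.9 and 99.4 CPM in treated glia, against 95.8, 103 and 104 CPM in untreated glia and was not called, nor was Tyms (-0.29 ± 0.14) unless treated replicate 2 was left out (-0.39). Tpx2, a spindle assembly factor, went against the list with 119.8, 111 and 119 CPM in treated glia, against 31.9, 27.6 and 28.7 CPM in untreated glia, and with LPS alone it had 29.5, 33.1 and 27.9 CPM, a direct difference of 1.95 ± 0.084. Ccne1 (cyclin E1) also rose (0.59 ± 0.19), a call lost on leaving out treated replicate 2 (0.44) or untreated replicate 3 (0.51).

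Metabolic genes moved in opposite directions by pathway. Of 16 glycolysis genes 15 rose and 1 fell (median 0.88). The glucose transporter Slc2a1 (GLUT1) had 310.1, 292 and 330.0 CPM in treated glia, against 120.0, 105 and 109 CPM in untreated glia. Pfkfb3, which makes the activator of phosphofructokinase, had 517, 574 and 615 CPM in treated glia, against 117, 104 and 107 CPM in untreated glia. Slc16a3 (MCT4), which exports lactate, had 103, 105 and 87.3 CPM in treated glia, against 11.8, 12.5 and 13.5 CPM in untreated glia. The platelet isoform of phosphofructokinase, Pfkp, fell to 338, 316 and 300.4 CPM in treated glia, against 752, 675 and 645 CPM in untreated glia, while the liver isoform Pfkl rose by 1.13 ± 0.089 on the log2 scale. Slc2a1 differed from LPS alone by 1.61 ± 0.10 and Hk2 by 1.23 ± 0.23, whereas Slc16a3 (0.24 ± 0.12) and Ldha (0.007 ± 0.12) did not pass that test. The rise of Eno1 (0.30 ± 0.12) lost its call on leaving out any library other than treated replicate 3 and the library labelled untreated replicate 1.

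Genes of the tricarboxylic acid cycle fell in 13 of 17 cases, by at most 1.11 ± 0.072 on the log2 scale (Suclg2, a succinyl-CoA ligase subunit), and Sdhb rose (0.44 ± 0.11). Idh3a, a subunit of the NAD-dependent isocitrate dehydrogenase, had 77.7, 67.8 and 70.1 CPM in treated glia, against 131, 121 and 121 CPM in untreated glia. Fh1 (fumarase) had 48.8, 44.2 and 39.2 CPM in treated glia, against 87.6, 82.9 and 78.1 CPM in untreated glia. Cs (citrate synthase) had 309.7, 282 and 293 CPM in treated glia, against 298, 269 and 265 CPM in untreated glia and was not called. Without the library labelled untreated replicate 1 the falls numbered 10. Of 22 nuclear genes of the respiratory chain 4 rose, 9 fell and 9 were not called, where 58.1% of all genes tested were called. Their changes were small in size, with a median of -0.13 on the log2 scale and 1 gene over 2-fold. Without the library labelled untreated replicate 1, 6 were lower. Cycs (cytochrome c) had the largest rise (1.06 ± 0.10) and Ndufa4 the largest fall (-0.90 ± 0.12). Mitochondrially encoded genes held 0.854% to 0.950% of counts in treated libraries, against 1.21% to 1.53% in untreated libraries, with mt-Nd1 at 652, 615 and 542 CPM in treated glia and 1385, 925 and 987 CPM in untreated glia. On the TMM scale the sum of 13 such genes was 9096, 10131 and 9107 CPM in treated glia, against 14013, 10243 and 11443 CPM in untreated glia. Of these genes 6 fell and 0 rose, with a median of -0.32 on the log2 scale. Without the library labelled untreated replicate 1, which held the highest share, 4 fell and 1 rose, with a median of -0.10.

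Genes of cholesterol synthesis rose. Of 27 genes of sterol and fatty acid metabolism 21 rose, 2 fell and 4 were not called (median 1.01). Mvd (mevalonate diphosphate decarboxylase) had 106, 89.8 and 97.6 CPM in treated glia, against 21.3, 19.2 and 17.97 CPM in untreated glia. Lss (lanosterol synthase) had 97.99, 103 and 110.1 CPM in treated glia, against 36.1, 32.2 and 31.8 CPM in untreated glia. Every treated library lay above every untreated library for both. Insig1, a brake of the pathway, had 189, 186 and 199 CPM in treated glia, against 152, 52.3 and 57.2 CPM in untreated glia, and its log2 fold change of 1.14 ± 0.29 became 1.81 ± 0.083 without the library labelled untreated replicate 1. Ch25h, which makes the antiviral 25-hydroxycholesterol, had 44.4, 54.5 and 47.96 CPM in treated glia, against 14.4, 9.28 and 6.58 CPM in untreated glia, lower than with LPS alone by 1.34 ± 0.17. Fasn (-0.15 ± 0.18) and Acaca (0.21 ± 0.12), which make fatty acids, were not called, though Acaca was called at 0.32 without treated replicate 1. The desaturases Scd1 and Scd2 fell slightly (-0.36 ± 0.13 and -0.21 ± 0.080), and Scd1 lost its call without the library labelled untreated replicate 1 (-0.11 ± 0.079), treated replicate 1 (-0.31) or treated replicate 3 (-0.36). Scd2 lost it without treated replicate 1, untreated replicate 2 or untreated replicate 3 (-0.15, -0.20 and -0.17). Apoe, a lipid carrier, had 7856, 5845 and 6185 CPM in treated glia, against 4210.2, 9088 and 8043 CPM in untreated glia; it was not called with all libraries and fell at -0.37 ± 0.12 without that library.

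Genes of antioxidant defence rose and lay above their level with LPS alone. Of 14 NRF2 and glutathione genes 12 rose, 1 fell and 1 was not called (median 1.60), and all 14 were higher than with LPS alone. Hmox1 (heme oxygenase-1) had 2742, 2374 and 2825 CPM with LPS and IFN-gamma, 155, 151 and 149 CPM with LPS alone and 332, 130.1 and 121 CPM untreated. Its log2 fold change over untreated was 3.77 ± 0.31, or 4.40 ± 0.11 without the library labelled untreated replicate 1. Slc7a11, which imports cystine, had 245, 376 and 427 CPM in treated glia, against 30.1, 33.9 and 30.04 CPM in untreated glia. Prdx1 (peroxiredoxin-1) had 4445, 4031 and 4188 CPM in treated glia, against 737, 643 and 635 CPM in untreated glia. Srxn1, which repairs peroxiredoxins, had 685, 604 and 707 CPM in treated glia, against 121, 76.2 and 74.99 CPM in untreated glia. The subunits of glutamate-cysteine ligase parted: Gclm, the modifier, had 467, 491 and 522 CPM in treated glia, against 176, 146 and 156 CPM in untreated glia, and Gclc, the catalytic subunit, fell to 112, 124 and 126 CPM in treated glia, against 206, 148 and 160.0 CPM in untreated glia. Nqo1, a common NRF2 target, was not called (0.21 ± 0.15).

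Among ATF4 and unfolded protein response genes 13 of 16 rose and 2 fell (median 1.26). Atf4 had 522, 418 and 469 CPM in treated glia, against 100.1, 82.7 and 72.6 CPM in untreated glia. Trib3, an ATF4 target, had 59.03, 48.2 and 51.7 CPM in treated glia, against 2.305, 4.29 and 4.96 CPM in untreated glia. Asns (asparagine synthetase) had 161, 138 and 164 CPM in treated glia, against 16.03, 22.3 and 23.03 CPM in untreated glia. Ddit3 (CHOP) rose by 3.30 ± 0.11 on the log2 scale. Chaperones of the endoplasmic reticulum, Hspa5 (BiP) and Hsp90b1, rose by 1.17 ± 0.076 and 1.15 ± 0.071, whereas Dnajb9 and Herpud1, also targets of the unfolded protein response, fell by 0.47 ± 0.078 and 0.24 ± 0.068. Phgdh, the first enzyme of serine synthesis, had 154, 123 and 141 CPM with LPS and IFN-gamma, 59.5, 60.8 and 54.95 CPM with LPS alone and 138, 161 and 152 CPM untreated. It was not called against untreated glia (-0.11 ± 0.11) and differed from LPS alone by 1.25 ± 0.11.

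Matrix genes moved in both directions, as did the genes tested as a whole (29.5% higher and 28.6% lower). Of 20 listed, 10 rose, 7 fell and 3 were not called. Without the library labelled untreated replicate 1, 11 rose and 5 fell. Mmp3 (stromelysin) had 499.8, 459.7 and 461 CPM in treated glia, against 4.502, 3.55 and 4.67 CPM in untreated glia. Mmp13 (a collagenase) had 86.4, 121 and 121 CPM in treated glia, against 0.322, 0.247 and 0.906 CPM in untreated glia, and its log2 fold change of 7.75 ± 0.25 became 8.56 without untreated replicate 3. Mmp12 rose by 3.68 ± 0.20. The inhibitors parted, Timp1 higher as given above and Timp3 lower, with 282, 464 and 374 CPM in treated glia, against 988, 734 and 861 CPM in untreated glia. Spp1 (osteopontin) fell, with 98.1, 119 and 111 CPM in treated glia, against 348, 279 and 261 CPM in untreated glia, and 338, 325 and 372 CPM with LPS alone, a direct difference of -1.66 ± 0.12. Lama2 fell by 1.72 ± 0.22 on the log2 scale. Calls for Fn1, Adamts1 and Tnc depended on the library labelled untreated replicate 1. Tnc (tenascin-C) had 678, 766 and 656 CPM in treated glia, against 968, 273 and 307 CPM in untreated glia, not called with that library and 1.27 ± 0.11 with a call without it. Adamts1 had 58.7, 66.1 and 67.3 CPM in treated glia, against 312, 71.3 and 75.99 CPM in untreated glia, at -1.26 ± 0.42 with it and -0.20 ± 0.091, not called, without it; the call was also lost without treated replicate 1 (-1.19). Fn1 (fibronectin) was at -0.64 ± 0.23 with it and -0.38 ± 0.22, not called, without it, nor was it called without treated replicate 1 (-0.48) or treated replicate 3 (-0.55).

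Among growth and trophic factors 9 of 15 rose and 3 fell, beside 29.5% higher and 28.6% lower over all genes tested. Without the library labelled untreated replicate 1, 11 rose and 2 fell. Gdnf, a survival factor of dopamine and motor neurons, had 10.4, 12.97 and 11.6 CPM in treated glia, against 0.643, 0.642 and 0.334 CPM in untreated glia. Vegfa had 198, 208 and 233 CPM in treated glia, against 65.3, 61.2 and 46.7 CPM in untreated glia. Nrg1 (neuregulin) rose by 1.46 ± 0.13 on the log2 scale. Igf1 went down, with 7.23, 11.1 and 6.31 CPM in treated glia, against 52.5, 47.3 and 54.6 CPM in untreated glia, and so did Fgf1, with 5.23, 5.61 and 5.99 CPM in treated glia, against 229, 83.8 and 82.9 CPM in untreated glia; the log2 fold change of Fgf1 was -4.55 ± 0.37, or -3.89 ± 0.13 without the library labelled untreated replicate 1. Fgf2 had 72.5, 102 and 85.5 CPM with LPS and IFN-gamma, 267, 259 and 279.9 CPM with LPS alone and 71.3, 58.8 and 59.4 CPM untreated, so treated glia lay above untreated glia (0.46 ± 0.12) and below LPS alone (-1.63 ± 0.13). Hbegf, a ligand of the EGF receptor, had 150.2, 137 and 134 CPM in treated glia, against 286, 95.7 and 102 CPM in untreated glia; its fitted difference was -0.20 ± 0.30 and not called, and without the library labelled untreated replicate 1 it was called higher at 0.51 ± 0.078. Bdnf, with 14.4, 18.6 and 15.5 CPM in treated glia, against 19.3, 12.8 and 11.9 CPM in untreated glia, was not called with all libraries and called higher at 0.39 ± 0.13 without that library.

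Genes often used as references were not steady. Of 15 listed, 10 rose, 2 fell and 3 were not called. Gapdh had 2603, 2255 and 2296 CPM in treated glia, against 1832, 1626 and 1449.7 CPM in untreated glia, a log2 fold change of 0.54 ± 0.10. B2m, at 4.17 ± 0.093, and Tfrc, at 1.72 ± 0.31 (2.40 ± 0.13 without the library labelled untreated replicate 1), rose most, and Gusb fell by 1.37 ± 0.091. Ywhaz had 497, 499 and 480.1 CPM in treated glia, against 499.8, 459.7 and 463 CPM in untreated glia, and Ppia 886, 764 and 768 CPM in treated glia, against 899.6, 810.1 and 772 CPM in untreated glia; both, with Tbp (-0.21 ± 0.089), were not called, and Tbp was called on leaving out treated replicate 2 (-0.27) or untreated replicate 2 (-0.25). The call of Actb (0.25 ± 0.10) was lost on leaving out any library except that labelled untreated replicate 1. In all, 578 genes had a 95% interval of the log2 fold change within 0.25 of 0. The most abundant of them by mean CPM were Sparc, Eef2, Slc1a3, Ywhae, Ctnnb1, Prnp, Ppia, Col4a1, Anxa5 and Oat. Prnp, the prion protein gene, had 922, 892 and 847 CPM in treated glia, against 825, 911 and 932 CPM in untreated glia, and Ctnnb1 (beta-catenin) 887, 935 and 945 CPM in treated glia, against 872, 837 and 866 CPM in untreated glia.

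Of transcripts not annotated as protein-coding, 51.0% of 445 long intergenic RNAs were called (90 higher and 137 lower), 41.8% of 366 antisense RNAs (64 and 89) and 22.9% of 284 processed pseudogenes (51 and 14), against 60.2% of 14293 protein-coding genes (4418 and 4180). Above 1 CPM in 1 group, again with separate groups and no clone name, the largest fitted rises were those of Cxcl11, Gbp11, H2-Q5 and Olfr753-ps1, which the deposited annotation types as polymorphic pseudogenes, and of Ptgs2os2 and Ifi203-ps, and the largest fitted falls those of Pinc, Dio3os, Sox1ot, Sap30bpos, H19 and Eldr. The libraries were unstranded, so reads of an antisense RNA and of the gene it overlaps cannot be told apart, and pseudogenes share reads with their parents. H2-Q5 had 71.8, 65.2 and 76.6 CPM in treated glia, against 0.0536, 0.0494 and 0.143 CPM in untreated glia; it belongs to the class I copies named above, and its fitted rise of 9.62 ± 0.22 became 10.25 without untreated replicate 3. Ptgs2os2, which lies beside Ptgs2, had 11.3, 14.5 and 11.9 CPM in treated glia, against 0.107, 0.198 and 0.0954 CPM in untreated glia. H19, an imprinted RNA, had 73.6, 91.9 and 48.8 CPM in treated glia, against 129, 566 and 464 CPM in untreated glia, a log2 fold change of -2.44 ± 0.42. Sox1ot had 2.06, 1.87 and 1.97 CPM in treated glia, against 11.8, 21.6 and 19.6 CPM in untreated glia. Pinc was at 0 counts in treated glia and had 0.697, 1.09 and 1.24 CPM in untreated glia, at least 16.04-fold lower. Dio3os had 0, 0.249 and 0 CPM in treated glia, against 1.07, 4.89 and 3.91 CPM in untreated glia, all its treated counts being in replicate 2.

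Some genes were called in opposite directions in the comparisons of LPS with IFN-gamma and of LPS alone with untreated glia. These comparisons share the untreated libraries, so the values are given side by side with the direct test between the stimuli. With LPS alone 6164 genes were called against untreated glia (38.4%), 3141 higher (19.5%) and 3023 lower (18.8%). The genes with the largest rises in treated glia that had fallen with LPS alone were Irf8, Mgll, Map3k9, Gclm, Osgin1, Prrg3, Entpd1, Cd83, Fam13a and Lrrc27. Irf8 had 218, 193 and 196 CPM with LPS and IFN-gamma, 26.9, 21.7 and 26.5 CPM with LPS alone and 32.4, 38.3 and 36.9 CPM untreated, with a direct difference of 3.02 ± 0.10 on the log2 scale. Mgll (monoacylglycerol lipase), which breaks down an endocannabinoid, had 558, 514 and 551 CPM with LPS and IFN-gamma, 48.8, 40.9 and 43.2 CPM with LPS alone and 89.7, 115 and 107 CPM untreated. Entpd1 (CD39), which degrades extracellular ATP, had 60.4, 59.3 and 66.2 CPM with LPS and IFN-gamma, 8.86, 9.92 and 8.895 CPM with LPS alone and 19.5, 24.1 and 22.9 CPM untreated. For all 3 the untreated libraries lay between the stimuli, a placing that the choice by opposite calls implies for the group means. Cd83, a marker of activated antigen-presenting cells, had a direct difference of 2.59 ± 0.22, and Osgin1, a NRF2 target, of 2.43 ± 0.26.

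In the other direction stood Sucnr1, Gna14, Pf4, Aspg, Cd300ld, Tfec, Kif26b, Map3k7cl, Pipox and Wisp1, which fell in treated glia and rose with LPS alone. Sucnr1, the receptor for succinate, had 0.968, 0.374 and 0.573 CPM with LPS and IFN-gamma, 7.87, 7.497 and 7.53 CPM with LPS alone and 4.72, 5.08 and 4.005 CPM untreated, a direct difference of -3.57 ± 0.29. Pf4 (CXCL4), a chemokine of border macrophages, had 0.839, 1.81 and 1.21 CPM with LPS and IFN-gamma, 13.9, 10.8 and 10.6 CPM with LPS alone and 9.22, 6.47 and 6.102 CPM untreated. Tfec, a transcription factor of macrophages, differed from LPS alone by -2.74 ± 0.34 and Aspg by -3.07 ± 0.33 on the log2 scale. Map3k7cl had 8.06, 7.05 and 6.75 CPM with LPS and IFN-gamma, 31.9, 31.03 and 37.7 CPM with LPS alone and 19.3, 19.8 and 19.3 CPM untreated.

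**Figure D5:**
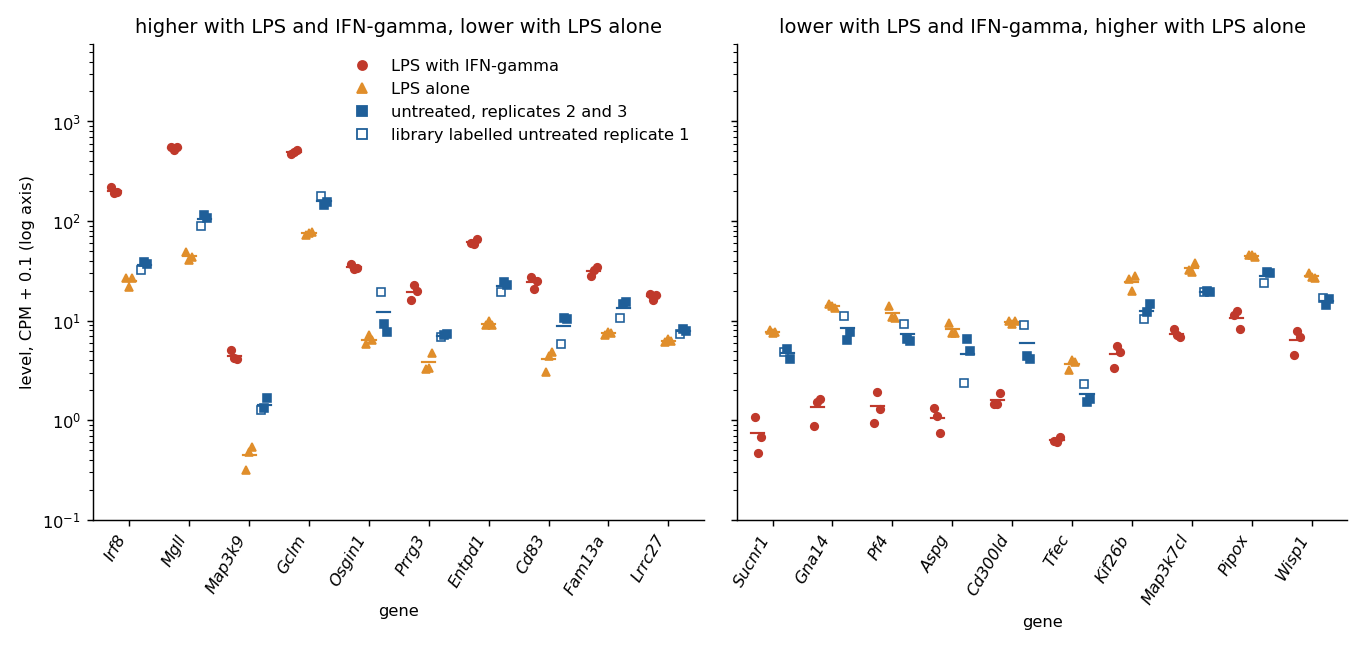
Levels as CPM + 0.1 on a log axis, 1 point per library, for the 10 genes with the largest rise (left) and the 10 with the largest fall (right) in LPS with IFN-gamma over untreated that LPS alone moved the other way; for each gene LPS with IFN-gamma stands first, then LPS alone, then untreated, and the open square is the library labelled untreated replicate 1. The untreated points lie between those of the stimuli, as the choice by opposite calls implies for the group means, with Mgll and Gclm the most abundant on the left.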

How the data were processed

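RNA-seq was measured in 27 mixed glia libraries, polyA-selected and unstranded per the labels' protocols, of which 15 form the experiment used here. Per the submitters' processing notes the authors used fastp, STAR and featureCounts with mm10; their versions are not given in the sources used here. As deposited by the authors, values are raw counts per gene and FPKM per gene and library. FPKM, the authors' scaling of counts by library and gene length, were averaged here only to describe levels per length, and all tests used the deposited counts.

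Counts were tested with edgeR 4.0.16 (filterByExpr by group, TMM, robust quasi-likelihood fit; R 4.3.3) in 1 fit of the 15 libraries in 5 groups, so that all groups share 1 estimate of spread, with contrasts of LPS with IFN-gamma against untreated and against LPS alone, at a Benjamini-Hochberg adjusted p under 0.05 over all 16073 genes tested. Standard errors are the log2 fold change divided by the square root of its F. The 3 replicates per group and 17383754 to 18116713 counts per library set the precision; counting intervals (95%, exact) and the floor of 3 counts cover counting error only. The code was tested on simulated data. Alternatives were DESeq2 1.42.0, DESeq2 size factors, no count filter, fewer or more libraries, a replicate block, a test against a fold of 1.5 and leaving out each library.

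Members and the 35 gene lists (607 entries, 590 genes) were chosen with earlier results of these data known. Named genes are the 12 largest rises and falls among called protein-coding genes of at least 5 CPM whose groups did not overlap (clone names left out), the 10 largest gains and losses of CPM, the 6 largest non-coding changes each way by the same filters at 1 CPM or more, the 10 most abundant with a 95% interval within 0.25 of 0, the 10 each way that LPS alone moved oppositely, the receptors, and list members: the first 4 measured, the largest changes and those against their list's majority, with further members for their roles. Not all of these are printed, and some genes are not reported here. Same-numbered libraries of LPS with IFN-gamma and untreated glia correlated at -0.142 to 0.061 in their deviations from the group means, which does not settle whether they were paired.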

Additional observations from a re-analysis of the deposited data

How the results depend on the processing

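The 9339 calls of LPS with IFN-gamma against untreated glia numbered 4315 (2161 higher and 2154 lower) in a test against a fold of 1.5, which asks for more than a change. Every other alternative kept the count within 1.5 times: 9372 with DESeq2 size factors, 9408 with DESeq2, 9208 without a count filter, 7423 with only the compared groups in the fit, 8802 with all 27 libraries, and 8454 to 9997 on leaving out each library in turn (4301 to 5082 higher, 4093 to 4915 lower). Against LPS alone the 5791 calls ranged from 4630 to 5239 on leaving out each library (2512 to 2890 higher, 2031 to 2366 lower). With the replicate block 9089 genes were called (4658 higher and 4431 lower), and 5555 against LPS alone. Same-numbered libraries correlated at -0.043, -0.142 and 0.061 in their deviations from the group means. With 3 libraries per group, 1 of them standing apart, these values cannot show whether same-numbered libraries shared a culture or batch. Of 615 single genes followed, 612 kept direction and call with the block and 612 with DESeq2. With only the compared groups in the fit 569 kept both, 36 were weaker and the rest had no value there. Direction and call were kept by 576 without the library labelled untreated replicate 1. That library turned 2 of them round: over the libraries left out, Hbegf ranged from -0.475 to 0.51 and Pmaip1 from -0.361 to 0.46 on the log2 scale, the upper value of each being that without it. The cause was not tested. A gene at 0 counts over a group could be bounded only, and 3 libraries per group, of unknown independence, limit all intervals.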
